A study of Mus musculus with 18 samples.

Results

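Transforming growth factor beta (TGF-beta) signalling was followed in mouse livers through 10 genes, namely the ligands Tgfb1, Tgfb2 and Tgfb3, the receptors Tgfbr1, Tgfbr2 and Tgfbr3, and the intracellular mediators Smad2, Smad3, Smad4 and Smad7. They were taken by symbol from a table of 55487 genes, and all 10 were found. The table came from RNA-seq of the livers of 18 male C57BL/6J mice, 6 per group and 1 library per mouse. The study compared an FPC diet (rich in fructose, palmitate and cholesterol, with sugar in the drinking water) with a purified control diet, and asked what hepatic overexpression of lysosomal acid lipase, the LIPA product that hydrolyses lipids in lysosomes, did on the FPC diet. CON-GFP mice ate the control diet after an adeno-associated virus (AAV) carrying GFP. FPC-GFP mice ate the FPC diet after the same GFP vector, and FPC-LIPA mice ate the FPC diet after a vector carrying human LIPA. All groups therefore carried a vector, driven by a promoter that works in hepatocytes and injected 1 week before the diet. The mice were 7 weeks old at purchase, had 1 week to acclimatize, were fed for 16 weeks and were fasted for 4 h before collection. A group without a vector and a group given LIPA on the control diet were not analysed here.

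TGF-beta ligands are secreted in a latent form, held in the matrix and released by proteases and integrins. Active ligand binds TGFBR2, which recruits TGFBR1, and TGFBR1 phosphorylates SMAD2 and SMAD3, which enter the nucleus with SMAD4. SMAD7 blocks the type I receptor and is itself induced by the pathway. In the liver the pathway is best known for turning stellate cells into cells that make collagen, and it also restrains the growth of hepatocytes.

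Total counts per library ranged from 16.6 to 37.7 M, and levels are given as CPM, the count per 1 M counts of the library, after TMM scaling of the libraries. Hepatocyte markers such as Alb and Trf summed to between 54030 and 105678 CPM in every library, so the libraries carried their labelled tissue. The mouse Lipa gene lay between 205 and 426 CPM, but the vector carried the human gene and this row does not check the LIPA label. Libraries FPC-LIPA 36, 37 and 39 stood apart from the other 15. Ribosomal protein genes took 6.58%, 8.21% and 8.29% of their counts, against 1.46% to 2.99% elsewhere. The difference between the median of long genes (exons over 5000 bases) and that of short genes (under 1500 bases) was -0.90, -0.72 and -0.88 log2 units in these libraries, against -0.04 to 0.58 in the other 15. Differences between FPC-LIPA and the other groups are therefore also given without these libraries for the members, the ratios and the pathway genes named.

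The promoters of 3 members that moved in the comparisons are shown so that the letters just upstream of each start can be seen, as 200 bases on the strand of the gene from the RefSeq promoter table of GRCm38.p6. Capitals mark a GC box (GGGCGG or its complement CCGCCC, read by Sp1 factors) or a Smad box (CAGAC or its complement GTCTG, the letters that SMAD3 and SMAD4 contact). None of these windows overlaps an annotated exon. The Tgfb1 window is chr7:25686802-25687001 (plus strand), the Tgfbr2 window chr9:116175364-116175563 (minus strand) and the Smad3 window chr9:63757995-63758194 (minus strand).
Tgfb1: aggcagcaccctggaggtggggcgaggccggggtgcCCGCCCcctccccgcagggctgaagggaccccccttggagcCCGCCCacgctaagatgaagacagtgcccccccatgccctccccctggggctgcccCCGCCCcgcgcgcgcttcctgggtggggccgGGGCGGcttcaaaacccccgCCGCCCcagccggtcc
Tgfbr2: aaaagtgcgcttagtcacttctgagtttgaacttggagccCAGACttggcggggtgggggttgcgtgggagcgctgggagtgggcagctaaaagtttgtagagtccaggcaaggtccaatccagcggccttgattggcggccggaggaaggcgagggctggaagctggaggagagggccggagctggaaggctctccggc
Smad3: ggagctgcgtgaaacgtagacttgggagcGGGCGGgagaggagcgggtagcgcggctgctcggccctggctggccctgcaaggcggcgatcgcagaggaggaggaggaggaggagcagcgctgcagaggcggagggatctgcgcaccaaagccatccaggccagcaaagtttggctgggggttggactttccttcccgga
The Tgfb1 window held 5 GC boxes and 77.5% G and C, against a median of 53% over all promoters of the table. A GC box occurred in 31.3% of the 27025 promoters, and the Smad3 window held 1. The Tgfbr2 window held 1 Smad box, a match found in 35.4% of all promoters. The 2 motifs share no overlapping letters in these windows, and a match is a description of the letters only. The table matched 5 members, which were these 3 with Tgfb2 and Tgfbr1.

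All 10 members are protein-coding genes. In the GENCODE M21 annotation of GRCm38, Tgfb1 spans chr7:25687002-25705077, Tgfb2 chr1:186622792-186705989 and Tgfb3 chr12:86056745-86079041. Tgfbr1 spans chr4:47353222-47414931, Tgfbr2 chr9:116084293-116175360 and Tgfbr3 chr5:107106570-107289629. Smad3 spans chr9:63646767-63757994, on the same chromosome as Tgfbr2, and Smad2, Smad4 and Smad7 lie on chromosome 18. Exons of 3 members overlap those of other genes, by 2.14% of the exon bases of Tgfb2 (Gm29491, opposite strand), by 7.6% and 4.82% of Tgfb3 (Gm48008 and Gm37804, opposite strand) and by 4.54% of Tgfbr3 (Gm43422, same strand). The strand setting of the counting is not given in the sources used here, so reads of such overlaps cannot be told apart.

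Compared per kilobase of exon, so that genes of different length can be set side by side, Smad4 was the most abundant member in each group. Its level was 5.50 ± 0.650 CPM per kb (SD, n = 6) in CON-GFP, 5.67 ± 0.885 in FPC-GFP and 7.51 ± 2.50 in FPC-LIPA. Tgfb2 was the least abundant, at 0.0590 ± 0.0170 CPM per kb in CON-GFP, 0.0719 ± 0.0141 in FPC-GFP and 0.156 ± 0.0709 in FPC-LIPA. In CON-GFP the order was Smad4, Tgfbr1, Tgfbr2, Smad7, Smad3, Smad2, Tgfbr3, Tgfb1, Tgfb3 and Tgfb2, so that the 3 ligands were the least abundant members. Of the neighbours in that order, only Smad2 with Tgfbr3 and Tgfb3 with Tgfb2 had ranges that did not overlap across the 6 libraries. In FPC-GFP Tgfbr2 stood second, at 4.68 ± 1.28 CPM per kb, above Tgfbr1 at 2.88 ± 0.538, and it was the higher of the pair in 6 of 6 libraries although their ranges overlapped. In FPC-LIPA the type I receptor was back above the type II receptor on average, at 3.79 ± 1.97 and 2.69 ± 0.748 CPM per kb. That order rested on FPC-LIPA 36, 37 and 39, without which the levels were 3.09 ± 1.09 and 3.12 ± 0.411 CPM per kb (SD, n = 3).

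The first comparison asked what the FPC diet did in mice with the GFP vector. Of the 10 members, 4 rose at an adjusted p under 0.05 in edgeR's quasi-likelihood test, which was fitted on all 14307 genes that passed the filter on low counts. The number that fell was 0 by edgeR, 0 at an unadjusted p under 0.05 and 0 by DESeq2. Over all genes tested, 12.9% passed as higher and 10.9% as lower. The members that rose were the ligands Tgfb1 and Tgfb3, the type II receptor Tgfbr2 and the receptor-activated Smad3. Tgfb1 alone also reached a fold change of 2, which with an adjusted p under 0.05 is the study's rule for differential expression and was met upward by 4.76% of genes. The median log2 fold change of the 10 members was 0.21, beside 0.01 over all genes tested.

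**Figure D1:**
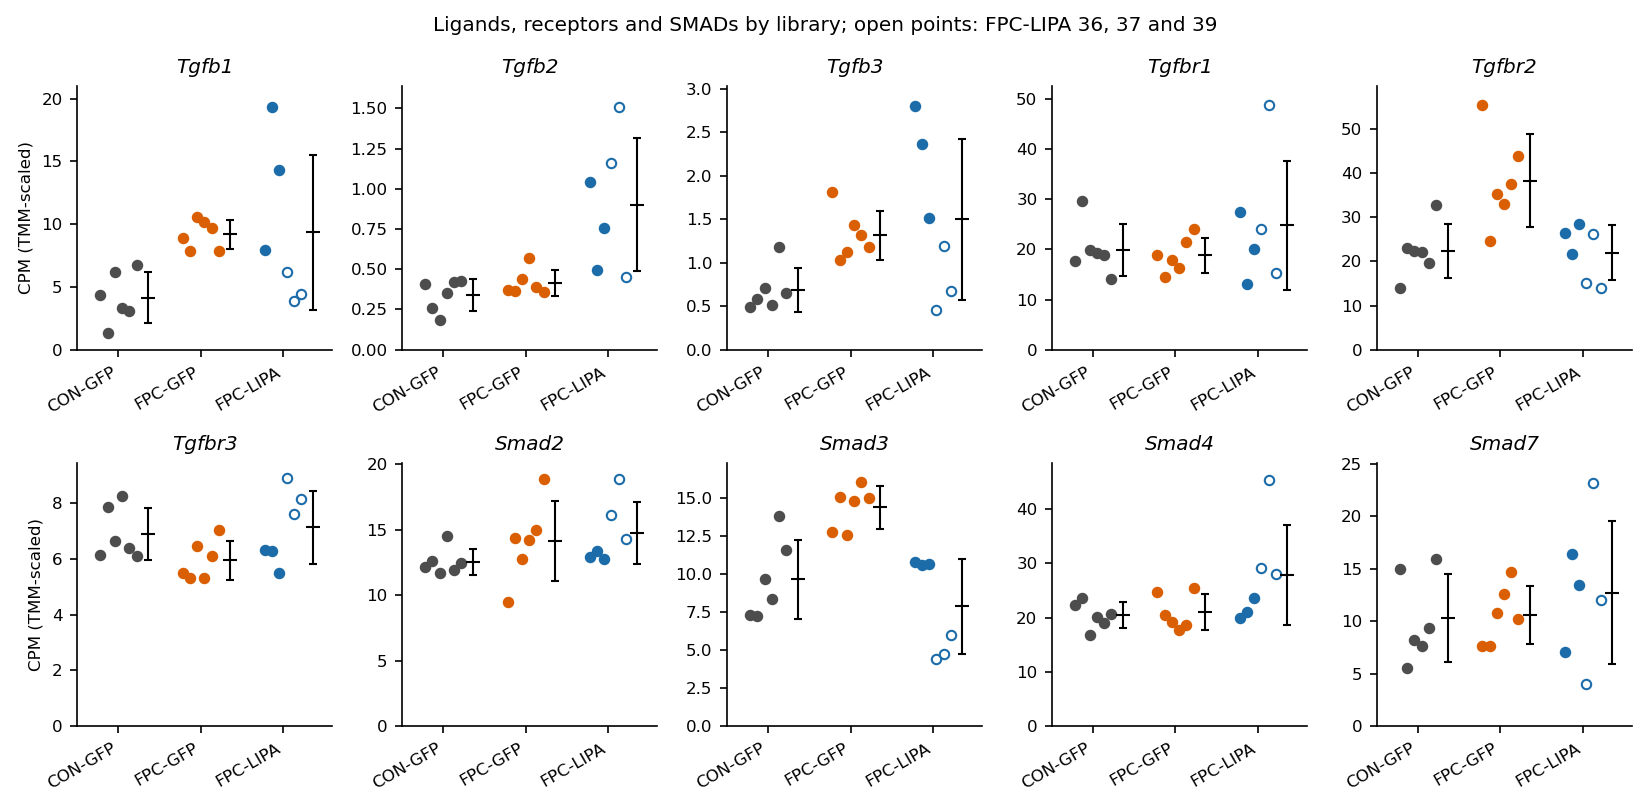
CPM of each member in each library (1 point per mouse, 6 per group, linear axes from 0), with the group mean and SD as a bar at the right of each group; open points are FPC-LIPA 36, 37 and 39. Every Tgfb1 point of FPC-GFP (7.86 to 10.6 CPM) lies above every CON-GFP point (1.29 to 6.71 CPM), and every Smad3 point of FPC-LIPA (4.41 to 10.8 CPM) lies below every FPC-GFP point (12.6 to 16.1 CPM).

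Tgfb1 encodes the main TGF-beta of liver, made there mostly outside hepatocytes. It had a lowest, median and highest level of 1.29, 3.81 and 6.71 CPM in CON-GFP and of 7.86, 9.30 and 10.6 CPM in FPC-GFP. All 6 FPC-GFP livers stood above all 6 CON-GFP livers, and the CON-GFP livers varied the more, with CON-GFP 2 lowest. The log2 fold change was 1.13 (SE 0.27, edgeR adjusted p = 0.00898), or 2.18-fold. Tgfb1 was the only member whose groups did not overlap upward, which held for 6.19% of all genes tested.

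Tgfb3, a ligand often found in mesenchymal cells, ran from 0.489 to 1.18 CPM with a median of 0.616 in CON-GFP, and from 1.03 to 1.81 CPM with a median of 1.25 in FPC-GFP. Only CON-GFP 7, at 1.18 CPM, reached into the FPC-GFP range. The log2 fold change was 0.91 (SE 0.26, edgeR adjusted p = 0.0210). Tgfb2 was barely detected, with 4 to 19 raw counts per library in these groups, and its medians were 0.381 and 0.382 CPM. Its log2 fold change was 0.26 (SE 0.28, edgeR adjusted p = 0.527).

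Among the receptors, Tgfbr2, the ligand-binding type II kinase, had a lowest, median and highest level of 13.9, 22.2 and 32.9 CPM in CON-GFP and of 24.6, 36.4 and 55.4 CPM in FPC-GFP. FPC-GFP 12 lay within the CON-GFP range and the other 5 FPC-GFP livers lay above it. The log2 fold change was 0.77 (SE 0.20, edgeR adjusted p = 0.0129), or 1.70-fold. Tgfbr1, the type I kinase that passes the signal on, had medians of 19.0 and 18.4 CPM and a log2 fold change of -0.09 (SE 0.17, edgeR adjusted p = 0.733). Tgfbr3, or betaglycan, a co-receptor that presents ligand, had medians of 6.51 and 5.80 CPM and a log2 fold change of -0.22 (SE 0.13, edgeR adjusted p = 0.223). The groups overlapped for both.

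Among the SMADs, Smad3 had a lowest, median and highest level of 7.28, 9.03 and 13.8 CPM in CON-GFP and of 12.6, 14.9 and 16.1 CPM in FPC-GFP. CON-GFP 7 was the only control liver within the FPC-GFP range. The log2 fold change was 0.56 (SE 0.16, edgeR adjusted p = 0.0180), or 1.48-fold. Smad2, the other receptor-activated SMAD, had medians of 12.3 and 14.3 CPM and a log2 fold change of 0.16 (SE 0.14, edgeR adjusted p = 0.422). The shared partner Smad4 stood at medians of 20.4 and 19.8 CPM, a log2 fold change of 0.03 (SE 0.12), and the inhibitory Smad7 at 8.79 and 10.5 CPM, a change of 0.03 (SE 0.25). Neither passed, and the groups overlapped for all 3.

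Markers of cells that make or bind TGF-beta differed in how far they moved with the diet. All 7 Kupffer cell markers, among them Cd5l and Clec4f, and 7 of 10 monocyte and macrophage markers, among them Lyz2 and Csf1r, passed as higher. The Kupffer cell markers summed to 129 to 263 CPM in CON-GFP and 362 to 604 CPM in FPC-GFP, and the monocyte and macrophage markers to 56.6 to 128 and 166 to 421 CPM, without overlap in either case. Of the sinusoidal endothelial markers 5 of 10 passed as higher, with sums of 224 to 349 and 306 to 367 CPM, while 1 of 10 stellate cell markers did, with sums of 354 to 487 and 389 to 461 CPM. The stellate markers had a median log2 fold change of -0.02. Over all genes tested, 12.9% passed as higher. No marker of these 4 lists was at 0 in all libraries of a group, and their part in the rise of the members was not tested. In whole liver, more cells of a type and more RNA per cell cannot be told apart.

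The 4 calls of this comparison held when any 1 of the 12 libraries was left out. In the 9 libraries with sample sheet numbers from 55 to 68 only Tgfb1 passed, with log2 fold changes of 0.79 for Tgfb3, 0.61 for Tgfbr2 and 0.39 for Smad3, and with all 18 libraries in one fit only Tgfbr2 did. In that joint fit the log2 fold changes stayed at 1.14 for Tgfb1 (edgeR adjusted p = 0.0578), 0.92 for Tgfb3 (edgeR adjusted p = 0.140) and 0.57 for Smad3 (edgeR adjusted p = 0.130). Calls were lost over all genes as well. With sheet numbers 55 to 68, 1995 of 14640 genes passed, and in the joint fit 1352 of 14963, against 3410 of 14307 with the 12 libraries fitted alone.

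The second comparison asked what LIPA overexpression did on the FPC diet. Of the 10 members, 2 fell (Tgfbr2 and Smad3) and 1 rose (Tgfb2) in FPC-LIPA against FPC-GFP. Over the 14620 genes tested, 6.87% passed as lower and 14.4% as higher, and 10.3% met the rule for differential expression upward, as Tgfb2 did. The median log2 fold change of the members was 0.23, beside 0.04 over all genes tested. None of the 3 calls held without FPC-LIPA 36, 37 and 39, where edgeR called 0 of 10 members and 5 had an unadjusted p under 0.05. Over all genes, 186 of 15246 passed in that fit of fewer libraries, against 3102 of 14620 with all libraries. Calls were also lost when single livers were left out. By edgeR, 0 members passed when FPC-GFP 20 or FPC-LIPA 36 was left out. When any of FPC-GFP 11, 12, 13 and 19 and FPC-LIPA 37 and 39 was, 1 passed. The genes passing over all went from 3102 to 1304 without FPC-GFP 20 and to 1092 without FPC-LIPA 36. With 1 left out, log2 fold changes ranged from -0.98 to -0.74 for Smad3, -0.90 to -0.66 for Tgfbr2 and 0.89 to 1.21 for Tgfb2.

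Smad3 fell from a mean of 14.4 ± 1.37 CPM (SD, n = 6) in FPC-GFP to 7.89 ± 3.15 CPM in FPC-LIPA. Its levels in FPC-LIPA formed 2 sets, 10.8, 10.6 and 10.7 CPM in FPC-LIPA 31, 33 and 34 and 4.41, 4.76 and 6.00 CPM in FPC-LIPA 36, 37 and 39. All 6 lay below the lowest FPC-GFP liver, at 12.6 CPM. The log2 fold change was -0.86 (SE 0.24, edgeR adjusted p = 0.0271), and without the 3 libraries it was -0.42 (edgeR adjusted p = 0.135). Smad3 was the only member whose groups did not overlap downward, which 3.77% of all genes tested did. No member stood above without overlap, beside 3.81% of all genes.

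Tgfbr2 stood at 26.4, 21.8 and 28.4 CPM in FPC-LIPA 31, 33 and 34 and at 15.2, 26.3 and 14.0 CPM in FPC-LIPA 36, 37 and 39. The 3 highest FPC-LIPA livers lay within the FPC-GFP range of 24.6 to 55.4 CPM and the 3 lowest lay below it. Its log2 fold change was -0.80 (SE 0.23, edgeR adjusted p = 0.0291), and -0.58 (edgeR adjusted p = 0.184) without the 3 libraries. Tgfb2 rose from a mean of 0.417 ± 0.0816 to 0.901 ± 0.410 CPM, which is 10 to 38 raw counts per library in FPC-LIPA. Of the 6 FPC-LIPA livers, 4 lay above all FPC-GFP livers, with FPC-LIPA 37 highest at 1.51 CPM. The log2 fold change was 1.08 (SE 0.36, edgeR adjusted p = 0.0444), and 0.87 (edgeR adjusted p = 0.227) without the 3 libraries.

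The other 7 members did not pass. Tgfb1 was spread widely, with 7.91, 19.3 and 14.3 CPM in FPC-LIPA 31, 33 and 34 and 6.15, 3.89 and 4.47 CPM in FPC-LIPA 36, 37 and 39, so that FPC-LIPA held livers above and below all FPC-GFP livers. Its log2 fold change was 0.03 (SE 0.34, edgeR adjusted p = 0.948), and 0.60 (edgeR adjusted p = 0.183) without the 3 libraries. Tgfb3 showed the same division, with 2.80, 2.37 and 1.51 CPM in the first 3 and 0.456, 1.19 and 0.677 CPM in the others, and a log2 fold change of 0.20 (SE 0.39, edgeR adjusted p = 0.720), or 0.77 (edgeR adjusted p = 0.166) without the 3. Smad4 had a log2 fold change of 0.41 (SE 0.21, edgeR adjusted p = 0.151), with FPC-LIPA 37 at 45.3 CPM and the other 5 livers between 20.0 and 29.1 CPM. Tgfbr1 was likewise highest in FPC-LIPA 37, at 48.7 CPM, with a log2 fold change of 0.40 (SE 0.28, edgeR adjusted p = 0.291). Smad7 ranged from 4.02 CPM in FPC-LIPA 36 to 23.2 CPM in FPC-LIPA 37, and its log2 fold change was 0.26 (SE 0.33). The values for Tgfbr3 and Smad2 were 0.26 (SE 0.17) and 0.06 (SE 0.18). Without the 3 libraries Smad4 stood at 0.05, Tgfbr1 at 0.11, Smad7 at 0.23, Tgfbr3 at 0.03 and Smad2 at -0.10.

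**Figure D2:**
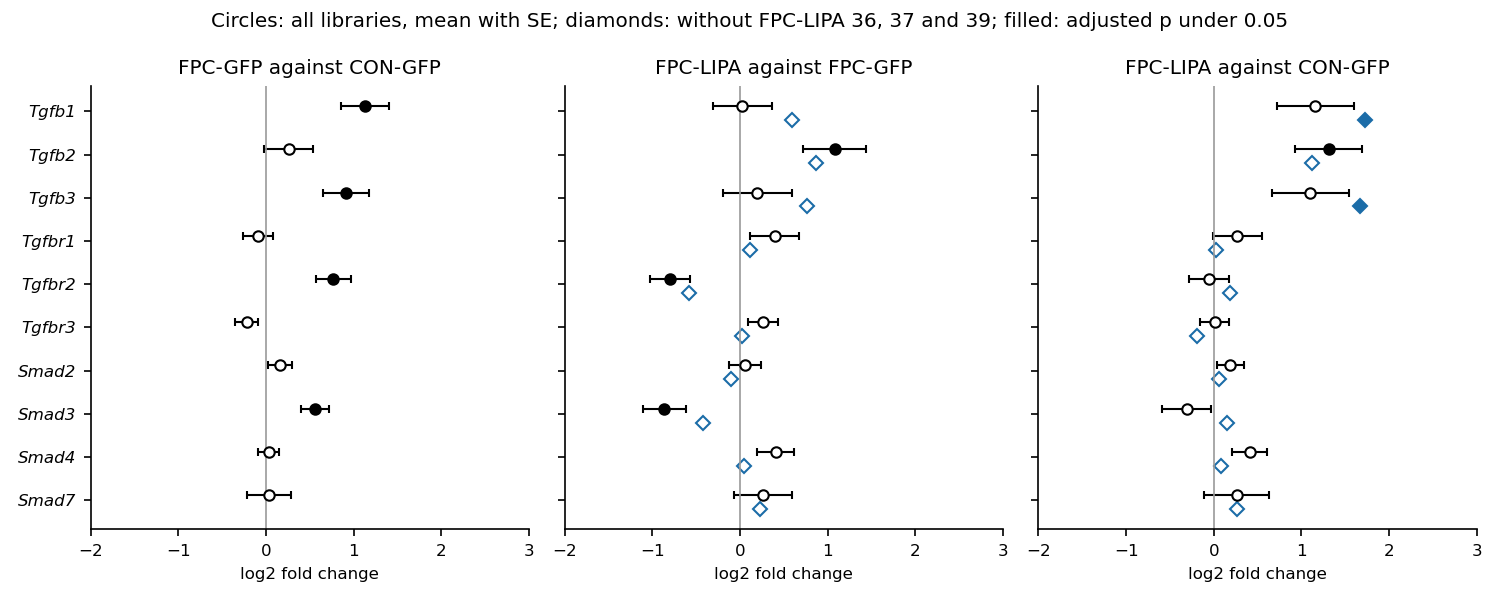
Log2 fold change of each member in the 3 comparisons (circles with SE: all libraries; diamonds: without FPC-LIPA 36, 37 and 39; filled symbols: edgeR adjusted p under 0.05; diamonds carry no error bar). In FPC-LIPA against FPC-GFP the filled circles of Tgfb2, Tgfbr2 and Smad3 have open diamonds, and in FPC-LIPA against CON-GFP the diamonds of Tgfb1 (1.73) and Tgfb3 (1.67) are filled.

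The share of ribosomal protein genes and the length difference of the libraries moved with these levels. The 3 livers with the lowest Smad3 were the 3 with the highest ribosomal share, and they also held the 3 lowest Tgfb1 and the 3 lowest Tgfb3 levels among the 6 FPC-LIPA livers. T cell, B cell, platelet, Kupffer cell, stellate cell and sinusoidal endothelial marker sums overlapped between these 3 livers and the other FPC-LIPA livers. Red blood cell markers, neutrophil markers and those of monocytes and macrophages followed the same division. The last summed to 638, 932 and 761 CPM in FPC-LIPA 36, 37 and 39 and to 505, 627 and 569 CPM in FPC-LIPA 31, 33 and 34. Red blood cell markers summed to 1817, 1927 and 2675 CPM in FPC-LIPA 36, 37 and 39 and to at most 953 CPM in the other 15 libraries, and neutrophil markers to 13.1, 18.8 and 13.3 CPM against at most 4.76 CPM. With each library's trend on gene length removed the 3 calls stayed, at log2 fold changes of -0.78 for Smad3, -0.67 for Tgfbr2 and 1.20 for Tgfb2. That fit adjusts for exon length alone and leaves other differences between the libraries in place. The part of these library measures and cell markers in the result was not tested. Monocyte and macrophage markers passed as higher for 6 of 10 genes in this comparison, with sums of 166 to 421 CPM in FPC-GFP and 505 to 932 CPM in FPC-LIPA. Kupffer cell markers did for 3 of 7 and stellate cell markers for 4 of 10, with stellate sums of 389 to 461 and 440 to 864 CPM. The 864 CPM was FPC-LIPA 37, and the other FPC-LIPA livers reached at most 539 CPM. The stellate list was divided, with 5 of 10 genes higher in direction and a median log2 fold change of 0.17. Its 2 most abundant genes went opposite ways, Dcn at 0.88 (SE 0.29) and Ecm1 at -0.40 (SE 0.27). Over all genes tested, 14.4% passed as higher. Of the sinusoidal endothelial markers 0 of 10 passed by edgeR, and 3 had an unadjusted p under 0.05. Hepatocyte markers passed as lower for 2 of 8 genes. Their part was not tested either.

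**Figure D3:**
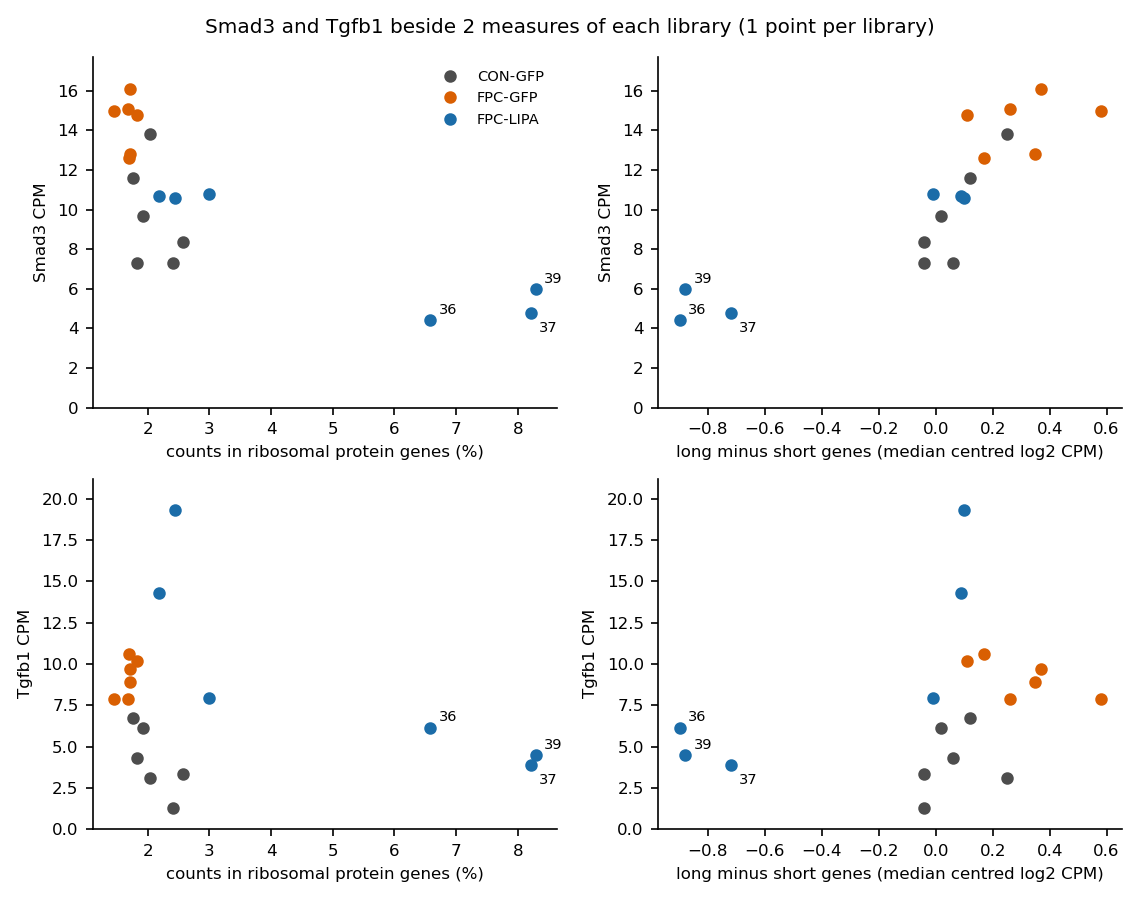
Smad3 and Tgfb1 CPM (vertical axes) beside the share of counts in ribosomal protein genes in percent (left) and the difference between long and short genes in median centred log2 CPM (right), 1 point per library. FPC-LIPA 36, 37 and 39, with shares of 6.58% to 8.29%, hold the 3 lowest Smad3 levels of all 18 libraries.

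Ratios of raw counts within a library do not depend on how libraries are scaled, and 3 were compared in the 3 comparisons by exact two-sided permutation tests, adjusted over the 9 tests. The log2 ratio of Tgfbr2 to Tgfbr1, the type II against the type I receptor, was 0.16 ± 0.58 (SD, n = 6) in CON-GFP, 1.00 ± 0.29 in FPC-GFP and -0.08 ± 0.63 in FPC-LIPA. Every FPC-GFP liver lay between 0.78 and 1.56, above every FPC-LIPA liver, which lay between -0.89 and 0.73. The FPC-LIPA ratio was lower by a mean log2 difference of -1.08 (exact permutation p = 0.00216, the smallest that 6 against 6 livers allow, adjusted p = 0.0195). Without FPC-LIPA 36, 37 and 39 the difference was -0.61 (exact permutation test, adjusted p = 0.107). FPC-LIPA 31, 33 and 34, at -0.05, 0.73 and 0.50, still lay below every FPC-GFP liver. The unadjusted p was thus the smallest that 3 against 6 livers allow, and the test could hardly pass with so few. For the diet the difference was 0.84 (exact permutation p = 0.0130, adjusted p = 0.0584), with CON-GFP 8, at 1.24, as the only control liver in the FPC-GFP range.

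The log2 ratio of Smad7 to Smad3, an inhibitor of the pathway against one of its effectors, was 0.03 ± 0.61 in CON-GFP, -0.48 ± 0.34 in FPC-GFP and 0.58 ± 1.01 in FPC-LIPA. All 6 FPC-GFP livers were below 0, from -0.99 to -0.13, and FPC-LIPA ranged from -0.61 to 2.28. The difference between FPC-LIPA and FPC-GFP was 1.06 (exact permutation p = 0.0216, adjusted p = 0.0649) and did not pass, and it was 0.60 (exact permutation test, adjusted p = 0.268) without the 3 libraries. The log2 ratio of Tgfb1 to the sum of Tgfb2 and Tgfb3 was 1.87 ± 0.89, 2.42 ± 0.24 and 1.82 ± 0.88 in the 3 groups, and the groups overlapped in each comparison. Its smallest adjusted p was 0.281 (exact permutation test). Without the 3 libraries FPC-LIPA differed by -0.26 from FPC-GFP and by 0.28 from CON-GFP (exact permutation test, adjusted p = 0.696 for both).

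**Figure D4:**
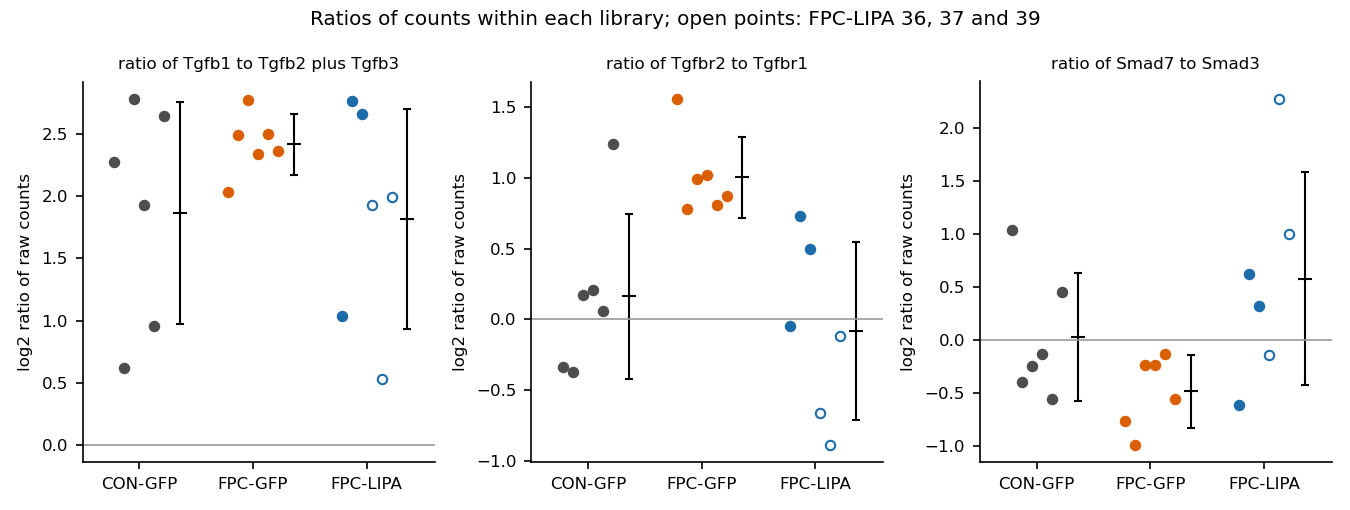
Log2 ratios of raw counts within each library (1 point per mouse, 6 per group, with mean and SD as a bar; open points: FPC-LIPA 36, 37 and 39; grey line: equal counts). For Tgfbr2 to Tgfbr1 the FPC-GFP points (0.78 to 1.56) lie above all FPC-LIPA points (-0.89 to 0.73).

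FPC-LIPA was also set against CON-GFP, which uses the same libraries as the comparisons above and is not independent of them. Of the 10 members 1, Tgfb2, rose, by 1.31 on the log2 scale (SE 0.38, edgeR adjusted p = 0.0219), and 0 fell by edgeR, at an unadjusted p under 0.05 or by DESeq2, where 14.7% of the 14433 genes tested passed as higher and 8.20% as lower. It also met the rule for differential expression, as 11.8% of genes did upward, and all 6 FPC-LIPA livers (0.451 to 1.51 CPM) lay above the CON-GFP livers (0.186 to 0.424 CPM), as was so for 6.26% of genes. Tgfb1 had a log2 fold change of 1.16 (SE 0.44, edgeR adjusted p = 0.0663) and Tgfb3 of 1.10 (SE 0.44, edgeR adjusted p = 0.0782). Without FPC-LIPA 36, 37 and 39 these 2 ligands passed instead, at 1.73 (edgeR adjusted p = 0.00810) and 1.67 (edgeR adjusted p = 0.00470), and Tgfb2 did not, at 1.12 (edgeR adjusted p = 0.0700). In that fit 1763 of 15113 genes passed as higher. The members that had fallen against FPC-GFP did not pass against CON-GFP. Their log2 fold changes were -0.05 (SE 0.23, edgeR adjusted p = 0.896) for Tgfbr2 and -0.31 (SE 0.28, edgeR adjusted p = 0.423) for Smad3, or 0.19 and 0.15 without the 3 libraries. For Smad3, FPC-LIPA 36, 37 and 39 (4.41 to 6.00 CPM) lay below every CON-GFP liver (7.28 to 13.8 CPM), and FPC-LIPA 31, 33 and 34 lay within that range. The median of the members was 0.27, beside 0.04 over all genes tested.

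The wider pathway was described by 93 genes in 8 roles. In FPC-GFP against CON-GFP 81 were tested, of which 18 rose (22.2%, beside 12.9% of all genes) and 2 fell (2.47%, beside 10.9%), with a median log2 fold change of 0.03. Among 12 tested genes that hold, store or activate latent ligand, 4 rose. Lrrc32, which tethers latent TGF-beta at the cell surface, rose from 8.45 ± 2.57 to 14.9 ± 1.46 CPM (log2 fold change 0.80, SE 0.18, edgeR adjusted p = 0.00688) without overlap. Thbs1, thrombospondin 1, an activator of latent TGF-beta, rose by 1.64 on the log2 scale (SE 0.40, edgeR adjusted p = 0.00919), and Emilin1, a matrix protein that restrains processing of the precursor, by 0.57 (SE 0.14, edgeR adjusted p = 0.0104). The last of the 4 was Ltbp4, a latent TGF-beta binding protein, at 0.81 (SE 0.21, edgeR adjusted p = 0.0139), named after its values were seen.

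Among the co-receptors and other family receptors, endoglin (Eng), a co-receptor of endothelial cells, rose by 0.59 (SE 0.15, edgeR adjusted p = 0.0108) and Acvrl1, the endothelial type I receptor ALK1, by 1.03 (SE 0.20, edgeR adjusted p = 0.00245). In both genes every FPC-GFP liver lay above every CON-GFP liver. Of 14 activin and BMP ligands and binders 3 rose. These were Inhbb, an activin subunit, at 1.62 (SE 0.26, edgeR adjusted p = 9.02e-04), follistatin (Fst), which traps activin, at 1.03 (SE 0.29, edgeR adjusted p = 0.0178), and Inhbc, an activin subunit made by hepatocytes, at 0.44 (SE 0.15, edgeR adjusted p = 0.0465).

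Regulators of the SMADs moved both ways with the diet. Smad6, the inhibitory SMAD of the BMP branch, rose by 0.79 (SE 0.20, edgeR adjusted p = 0.0111). Pmepa1, a feedback inhibitor that sequesters receptor-activated SMADs, rose from 3.06 ± 0.652 to 5.98 ± 1.34 CPM (edgeR adjusted p = 0.00277) without overlap, and the SMAD corepressor Ski rose by 0.58 (SE 0.16, edgeR adjusted p = 0.0157). Its relative Skil fell by 0.87 on the log2 scale (SE 0.27, edgeR adjusted p = 0.0318), and the ubiquitin ligase Wwp1 fell by 0.67 (SE 0.17, edgeR adjusted p = 0.0111). Of the 7 genes of the branch that runs through the kinases TAK1 and p38 instead of SMADs, 0 passed by edgeR, 0 by DESeq2 and 0 at an unadjusted p under 0.05.

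Genes known as targets of TGF-beta gave 6 of 18 higher (33.3%, beside 12.9% of all genes), and the median of the 18 was 0.49 on the log2 scale. The fibrillar collagens led. Col1a1 rose from 3.76 ± 1.40 to 13.7 ± 2.34 CPM (log2 fold change 1.84, SE 0.23, edgeR adjusted p = 2.00e-04), Col1a2 by 1.15 (SE 0.16, edgeR adjusted p = 4.18e-04) and Col3a1 by 1.15 (SE 0.20, edgeR adjusted p = 0.00148), each without overlap. Tagln, an actin-binding protein of contractile cells, and Timp1, an inhibitor of matrix proteases, were also among those that rose and were named after their values were seen.

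In FPC-LIPA against FPC-GFP 83 pathway genes were tested, of which 7 rose (8.43%, beside 14.4% of all genes) and 9 fell (10.8%, beside 6.87%), with a median of -0.08. Without FPC-LIPA 36, 37 and 39, 0 of 85 passed by edgeR, where 186 of 15246 genes did, and 17 of the 85 had an unadjusted p under 0.05. With all libraries, 4 of 19 targets rose (21.1%) and 1 fell. Ccn2, connective tissue growth factor, rose from 10.1 ± 3.60 to 32.2 ± 19.7 CPM (log2 fold change 1.67, SE 0.35, edgeR adjusted p = 0.0136), and at 19.2 CPM on average in the remaining 3 livers it had a log2 fold change of 0.94 (edgeR adjusted p = 0.0845). Col3a1 rose from 46.4 ± 7.92 to 150 ± 134 CPM (log2 fold change 1.70, SE 0.40, edgeR adjusted p = 0.0174), and had 0.73 (edgeR adjusted p = 0.0714) without the 3. The type I chains did not pass, with log2 fold changes of -0.19 (SE 0.32) for Col1a1 and 0.15 (SE 0.23) for Col1a2, or 0.36 and 0.38 without the 3. Postn, periostin, rose by 0.92 (SE 0.25) and Lox, which cross-links collagen and was named after its values were seen, by 1.87 (SE 0.56). Fibronectin (Fn1), which hepatocytes also make as a plasma protein, fell by 0.91 (SE 0.22, edgeR adjusted p = 0.0188), all 6 livers lying below FPC-GFP. Without the 3 libraries the values were 0.65 for Postn, 1.87 for Lox and -0.74 for Fn1.

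Genes upstream of the receptors fell or rose in the same comparison. Furin, the protease that cleaves the TGF-beta precursor, fell from 224 ± 33.5 to 99.2 ± 51.0 CPM (log2 fold change -1.17, SE 0.31, edgeR adjusted p = 0.0224) without overlap, and had -0.67 (edgeR adjusted p = 0.0714) without the 3 libraries. Plg, plasminogen, fell by 0.73 (SE 0.21, edgeR adjusted p = 0.0306), and Fbn1, fibrillin 1, which anchors latent complexes in the matrix, rose by 0.87 (SE 0.30, edgeR adjusted p = 0.0486). Of the BMP ligands, Bmp2 rose by 1.56 (SE 0.35, edgeR adjusted p = 0.0154) and Bmp5 by 0.75 (SE 0.20), while Bmp7 fell by 0.97 (SE 0.24). Without the 3 libraries Bmp2 stood at 0.57 (edgeR adjusted p = 0.151), Bmp5 at 0.40 and Bmp7 at -0.88, and Plg and Fbn1 at -0.39 and 0.38. Downstream, Zfyve9 (SARA, which brings SMAD2 and SMAD3 to the receptor) fell from 22.3 ± 3.07 to 11.3 ± 3.49 CPM (log2 fold change -0.97, SE 0.20, edgeR adjusted p = 0.0128) without overlap, and had -0.66 (edgeR adjusted p = 0.0772) without the 3. The remaining 4 that fell were Smurf1, a ubiquitin ligase that acts with SMAD7 (log2 fold change -0.81, SE 0.24), the co-receptor Nrp1 (-0.70, SE 0.23), the activin receptor Acvr1b (-0.85, SE 0.27) and the p38 kinase gene Mapk14 (-0.60, SE 0.18), with values of -0.41, -0.51, -0.37 and -0.37 in that order without the 3 libraries.

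**Figure D5:**
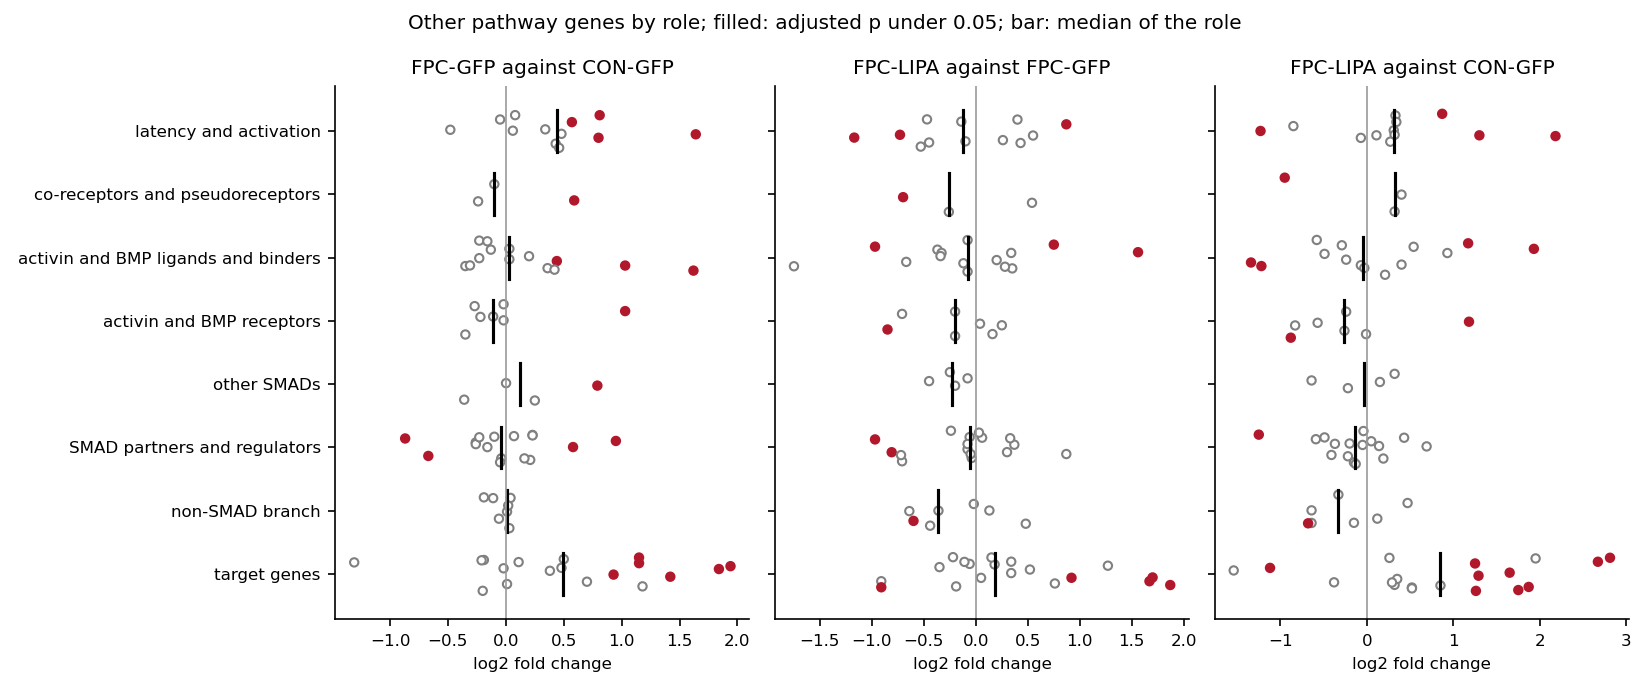
Log2 fold change of each tested pathway gene that is not a member, by role, in the 3 comparisons (filled: edgeR adjusted p under 0.05; black bar: median of the role; vertical scatter within a role carries no value). Target genes have medians of 0.49, 0.18 and 0.85 from left to right, the highest of the 8 roles in each comparison.

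Against CON-GFP, FPC-LIPA had 14 pathway genes higher and 8 lower of 82 tested, shares of 17.1% and 9.76% near the 14.7% and 8.20% of all genes. Targets were 8 higher (42.1%) and 1 lower of 19, and the same 9 passed without FPC-LIPA 36, 37 and 39. Col3a1 had a log2 fold change of 2.81 (SE 0.44, edgeR adjusted p = 5.46e-04), or 1.88 (edgeR adjusted p = 5.49e-04) without the 3, and Tagln of 1.25 (SE 0.20, edgeR adjusted p = 7.12e-04), or 1.04 without them. Fn1 was the one target that fell, at -1.12 (SE 0.22, edgeR adjusted p = 0.00297), or -0.93 without the 3. Zfyve9 fell by 1.25 on the log2 scale (SE 0.21, edgeR adjusted p = 8.05e-04), and had -0.91 (edgeR adjusted p = 0.00271) without the 3 libraries. Inhbb rose by 1.93 (SE 0.25, edgeR adjusted p = 1.40e-04), and by 2.08 (edgeR adjusted p = 1.43e-04) without them.

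Of the 5 members that passed in any comparison, Smad3 had the closest match in pattern over the 18 libraries. The likeness is the root mean square difference of log2 CPM, each gene centred on its own mean, among genes with a mean of at least 1 CPM. Chdh, choline dehydrogenase of the mitochondrion, lay 0.13 log2 units from Smad3 and Trim56 0.17, where the median gene lay at 0.68. Chdh had mean levels of 170, 253 and 142 CPM in CON-GFP, FPC-GFP and FPC-LIPA. The nearest genes to Tgfbr2 were Tns3 at 0.29 and Kif21a at 0.30, against a median of 0.68. Those to Tgfb1 were Sox18 at 0.32 and Plcg2 at 0.33, against a median of 0.97, those to Tgfb2 were Arhgap18 at 0.31 and Gbp2 at 0.35, and those to Tgfb3 were Sfxn3 at 0.35 and Abr at 0.37. A small distance describes these 18 livers, which share their libraries and library measures, and says nothing of shared control.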

How the data were processed

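RNA from 18 mouse livers was sequenced. The authors trimmed the reads, mapped them to GRCm38 with HISAT2 2.1.0 (version per the labels) and counted them on genes with featureCounts of Subread. The deposited values are these raw counts, without normalization, for 55487 genes in 23 columns. The 18 columns of these groups were found from the condition and mouse in their names. Another 5, whose names give other vectors, were left out. The labels name a stranded and an unstranded kit without saying which library used which. How reads with several hits were counted is not given in the sources used here.

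Each pair of groups (12 libraries) was fitted on its own with edgeR 4.0.16 in R 4.3.3, using filterByExpr, TMM, the quasi-likelihood test and Benjamini-Hochberg adjustment over all genes tested. SE is the log2 fold change divided by the square root of F. Ratios were tested with scipy 1.17.1. The test was checked on simulated data. Libraries of a group differed by far more than counting noise (chi-square per degree of freedom from 16.4 to 632), so errors are over mice.

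The members and lists were chosen with earlier results of these data known. Named genes were all members; of each pathway role the genes that passed, at most the 3 with the smallest p in each direction and comparison; the 2 most abundant genes of the marker lists; and the 2 genes nearest in pattern to each member that passed. Alternatives were upper-quartile factors, DESeq2 size factors, library size alone, the DESeq2 1.42.0 Wald test, a robust fit, no filter, 1 CPM or more in 6 libraries, a joint fit of all 18, sample sheet numbers 55 to 68, each library left out, removal of length trends, an adjusted p under 0.01, omission of FPC-LIPA 36, 37 and 39, and 0.5 added to counts of the ratios. T cell, B cell, neutrophil, platelet and red blood cell markers are given with the other observations. Values of 1 pathway gene and of 1 further marker list are not reported here.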

Additional observations from a re-analysis of the deposited data

Results flagged for a closer look

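Of 39 groups of 6 livers checked for a library set apart from the rest by Dixon's criterion, 6 held one, where chance alone marks about 1 in 20 groups. Of these, 3 were single CON-GFP livers for a member's level: CON-GFP 7 for Tgfb3 at 1.18 CPM, CON-GFP 2 for Tgfbr1 at 29.7 CPM and CON-GFP 6 for Smad2 at 14.5 CPM. In FPC-LIPA, liver 37 stood apart for Smad4 at 45.3 CPM. For the log2 ratio of Tgfbr2 to Tgfbr1, CON-GFP 8 stood apart at 1.24 and FPC-GFP 11 at 1.56.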

How the results depend on the processing

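No paired analysis was possible because the groups share no mouse numbers. Over all alternatives, 587 of 676 values of single members kept their direction and their side of the threshold, 42 changed sign, 39 lost the call and 8 gained one. Where a call was lost, the cause was not tested, beyond the fewer libraries of the subsets. Library size in place of TMM moved the median log2 fold change of all genes by 0.20 in FPC-GFP against CON-GFP and by -0.13 in FPC-LIPA against FPC-GFP.

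In FPC-GFP against CON-GFP, 1 member passed with all 18 libraries in one fit (Tgfbr2), 1 with sample sheet numbers 55 to 68 (Tgfb1) and 1 at an adjusted p under 0.01 (Tgfb1), and 6 and 9 pathway genes passed with all 18 libraries and at 0.01. Over all genes, 1352 of 14963 passed with all 18 libraries and 1995 of 14640 with sheet numbers 55 to 68. Members near 0 changed sign, namely Tgfbr1 with library size (0.13) and, with the length trend removed, Smad4 (-0.03) and Smad7 (-0.04). With 1 library left out, Tgfbr1 ranged from -0.17 to 0.06, Smad4 from -0.03 to 0.08 and Smad7 from -0.09 to 0.19, and 4 members passed each time.

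In FPC-LIPA against FPC-GFP, 1 member (Tgfbr2) and 7 pathway genes passed with library size, and 0 members and 0 pathway genes by edgeR with sheet numbers 55 to 68, without FPC-LIPA 36, 37 and 39, or at 0.01. Over all genes, 104 of 14736 passed with sheet numbers 55 to 68 and 186 of 15246 without the 3 libraries. With 1 library left out, 0 to 3 members and 8 to 28 pathway genes passed. No member passed without FPC-GFP 20 or FPC-LIPA 36, and 1 without FPC-GFP 11 or 13 (Smad3), without FPC-GFP 12 or 19 or FPC-LIPA 37 (Tgfbr2) or without FPC-LIPA 39 (Tgfb2), at edgeR adjusted p of at most 0.0630 for Smad3, 0.0665 for Tgfbr2 and 0.0955 for Tgfb2. The pathway count was 8 when mouse 12 or 20 of FPC-GFP, or 36 or 39 of FPC-LIPA, was omitted, 9 when 11 or 37 was, 10 when 13 was and 28 when 33 was. Tgfb2 also lost its call with no filter (1.01) and library size (0.92). Signs turned for Tgfb1 (-0.0044) and Smad2 (-0.11) with library size, Smad2 with no filter (-0.0011) and without the 3 libraries (-0.10), and Smad7 with sheet numbers 55 to 68 (-0.01). Left-out ranges were -0.31 to 0.19 for Tgfb1, -0.07 to 0.39 for Tgfb3 and -0.03 to 0.16 for Smad2.

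In FPC-LIPA against CON-GFP, 3 members passed with the DESeq2 Wald test and with all 18 libraries (the 3 ligands), 2 without FPC-LIPA 36, 37 and 39 (Tgfb1 and Tgfb3), and 0 by edgeR with no filter, with at least 1 CPM in 6 libraries (which removed Tgfb2 and Tgfb3 and left 8 members), with sheet numbers 55 to 68 or at 0.01. Over all genes, 4434 of 14433 passed with the DESeq2 Wald test, 4868 of 14963 with all 18 libraries and 2720 of 15113 without the 3. The numbers were 3112 of 25624 with no filter, 2917 of 12550 with the filter at 1 CPM and 1402 of 14914 with sheet numbers 55 to 68. With 1 library left out 0 to 2 members passed, 0 without CON-GFP 3 and 2 without FPC-LIPA 36 or 37. Tgfbr2 turned to 0.03 with upper-quartile factors, 0.06 with library size, 0.04 with the length trend removed and 0.19 without the 3 libraries, Tgfbr3 to -0.03 with no filter and -0.19 without the 3, and Smad3 to 0.15 without the 3. Left-out ranges were -0.02 to 0.42 for Tgfbr1, -0.16 to 0.09 for Tgfbr2 and -0.06 to 0.07 for Tgfbr3.

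The log2 ratio of Tgfbr2 to Tgfbr1 in FPC-LIPA against FPC-GFP was -0.95 with sheet numbers 55 to 68 and -0.61 without the 3 libraries, and passed in neither, while it held with any 1 library left out. The groups did not overlap in either subset, and fewer livers raise the smallest p that the permutation test can give. The ratio was also set against CON-GFP. Without the 3 libraries the ratio of Tgfbr2 to Tgfbr1 turned to 0.23 against CON-GFP, as did that of Tgfb1 to Tgfb2 plus Tgfb3 to 0.28, which ranged from -0.30 to 0.21 with 1 library left out. The diet difference in Tgfbr2 to Tgfbr1 ranged from 0.73 to 1.06 and passed without CON-GFP 8, and the difference in Smad7 to Smad3 between FPC-LIPA and FPC-GFP from 0.72 to 1.30 and passed without FPC-LIPA 31. At 4 to 38 raw counts per library, depth limits the values of Tgfb2.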

Other observations

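Markers of other blood cells were also measured beside the members. T cell markers such as Trbc2 and Cd4 summed to 4.14 to 6.34 CPM in CON-GFP, 2.34 to 5.70 in FPC-GFP and 4.57 to 13.4 in FPC-LIPA. B cell markers such as Ighm and Cd79b summed to 7.66 to 20.7, 8.19 to 21.6 and 15.2 to 43.3 CPM. Red blood cell markers, of which Hbb-bs and Alas2 were the most abundant, summed to 297 to 583, 283 to 474 and 520 to 2675 CPM, with FPC-LIPA 36, 37 and 39 the 3 highest. These 2 genes went opposite ways in FPC-LIPA against FPC-GFP. Hbb-bs had a log2 fold change of 3.33 (SE 0.49, edgeR adjusted p = 0.00790) and Alas2 of -0.61 (SE 0.25, edgeR adjusted p = 0.0870). Neutrophil markers (S100a9, S100a8) summed to a median of 1.30, 1.46 and 8.93 CPM, with Ly6g at 0 in every CON-GFP and FPC-LIPA library. Platelet markers (Itga2b, Pf4) reached at most 4.30, 5.02 and 7.95 CPM in sum. In FPC-LIPA against FPC-GFP, markers that passed as higher in edgeR's test were 3 of 7 tested for T cells, 3 of 6 for B cells, 2 of 2 for neutrophils and 2 of 5 for red blood cells. The part of these cells in the levels of the members was not tested.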
